A study of Mus musculus with 2 samples.

Results

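The clustered protocadherins are cell-surface adhesion proteins of the cadherin superfamily, encoded side by side in 3 gene clusters (alpha, beta and gamma) on mouse chromosome 18. They were chosen by name alone, as every gene symbol beginning with Pcdha, Pcdhb or Pcdhg, which gave 59 of the 22072 symbols in the expression tables. The naming rule itself uses no measured value. The alpha cluster contributed 15 of them, the beta cluster 22 and the gamma cluster 22. In mm9, alpha rows began at position 37089939, beta rows covered 37424652 to 37681073 and gamma rows covered 37821599 to 38001526.

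Each alpha or gamma messenger RNA joins 1 large variable exon, which carries its own promoter and encodes the extracellular and transmembrane parts, to constant exons that encode a common intracellular tail. Beta genes have a single exon and lack that tail. In neurons, where the family is best known, CTCF and cohesin bring a distant enhancer to the promoters, single cells choose different sets of isoforms, and matching sets on facing membranes bind each other and let a neuron recognise its own branches. The C types at the ends of the alpha and gamma clusters follow other rules of promoter use than the numbered alpha, gamma A and gamma B isoforms.

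RNA was sequenced from lower molar mesenchyme of mouse embryos of mixed background strain at embryonic day 14.5, cut from frozen head sections with a laser. The mutant embryos were Osr2-/- (n = 1 library) and the control embryos Osr2+/- (n = 1 library), so by their genotype label the controls also carried 1 mutant allele. The title of the series names wild type instead, and the genotype label was followed here. Osr2, a zinc-finger DNA-binding protein made in tooth mesenchyme, restricts where molars form. Tissue of 3 pairs of mutant and control samples was pooled before extraction, and the labels do not say which part of the gene the allele lacks. The sequencing lane differed between the libraries, as the file names show, and its effect cannot be told apart from that of the genotype. With 1 library per genotype there is no replicate check, and each difference below describes these 2 libraries.

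Osr2 was listed at 9.16 RPKM in the mutant library and 38.7 RPKM in the control library, where RPKM counts reads per kilobase of transcript and per M of mapped reads. The mutant library held about 34.3 M mapped reads and the control library about 5.38 M, as estimated from coverage. The control therefore sets the precision of nearly every ratio, and its counting intervals are the wider ones. Checked against markers of the labelled tissue, all 12 dental mesenchyme genes on the list were present in both libraries, led by Postn (a matrix protein) at 149 RPKM in the mutant and 226 RPKM in the control.

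The clustered protocadherins summed to 44.7 RPKM in the mutant library (95% counting interval 43.7 to 45.8) and 51.8 RPKM in the control library (49.0 to 54.7). The ratio of mutant to control was 0.864 (0.814 to 0.919). With both libraries rescaled to a common total (a TPM-like scale, described further on) it was 0.952 (0.897 to 1.01), so the family-wide difference depended on the scale. Intervals come from approximate read numbers (6874 reads in the mutant and 1246 in the control for the whole family) and cover counting error only, since amplified reads are not independent molecules. In bulk tissue, fewer cells of a type and less RNA per cell cannot be told apart. The gamma cluster supplied most of the signal, 79.5% of the summed RPKM in the mutant and 80.6% in the control. The beta cluster supplied 17.4% in the mutant and 17.2% in the control, and the alpha cluster 3.06% in the mutant and 2.20% in the control.

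In summed RPKM, the difference between the libraries lay mainly within the gamma cluster, which also held most of the signal. The ratio of the whole gamma cluster, 0.852 (0.797 to 0.911), was close to that of the beta cluster (0.878). The 19 gamma A and B isoforms summed to 19.0 RPKM in the mutant (18.3 to 19.7) and 26.3 RPKM in the control (24.3 to 28.4), a ratio of 0.722 (0.661 to 0.784). The C type Pcdhgc3 was at 15.8 RPKM in the mutant (15.2 to 16.4) and 14.8 RPKM in the control (13.3 to 16.4), a ratio of 1.07 (0.956 to 1.19). The gamma A and B isoforms were thus lower in the mutant library beyond counting error, while the interval of the Pcdhgc3 ratio included 1. Beta isoforms summed to 7.80 RPKM in the mutant (7.31 to 8.32) and 8.89 RPKM in the control (7.60 to 10.3). Their ratio of 0.878 had an interval that also included 1 (0.743 to 1.04). That interval rested on about 168 reads in the control, against 1045 for the gamma cluster, and overlapped the interval of the gamma A and B ratio.

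**Figure D1:**
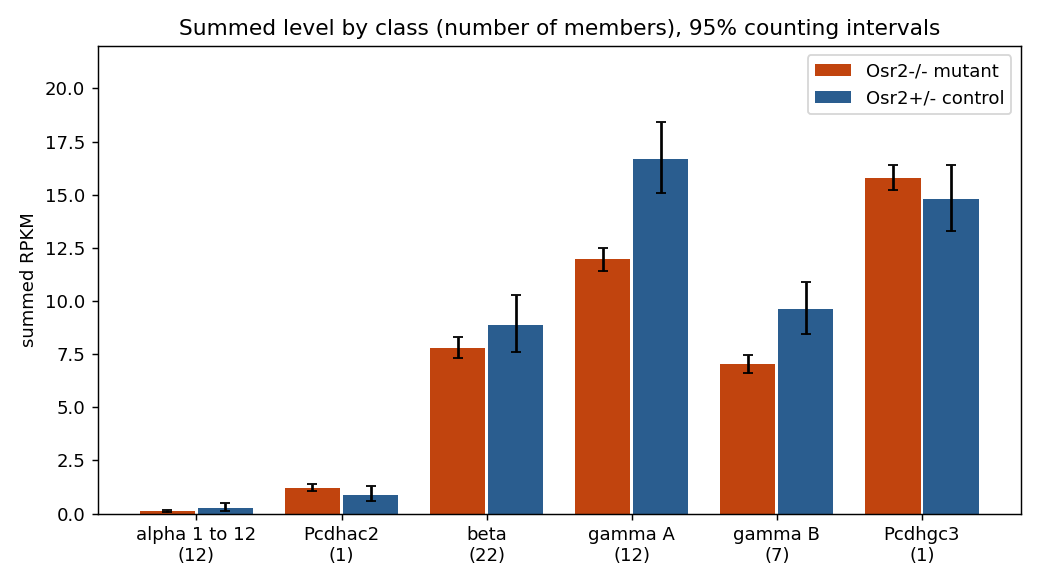
Summed RPKM by isoform class in the Osr2-/- mutant library (orange) and the Osr2+/- control library (blue), with the number of members in brackets and 95% counting intervals as error bars; Pcdhac1, Pcdha4-g, Pcdhgc4 and Pcdhgc5 are left out. Gamma A stood at 12 RPKM in the mutant and 16.7 RPKM in the control, gamma B at 7.02 RPKM in the mutant and 9.62 RPKM in the control, and the intervals of Pcdhgc3 overlapped.

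How the values were made limits what a single isoform can show. In the GENCODE M21 annotation (GRCm38), the constant exons make up a median of 53.5% of an alpha transcript and 44.8% of a gamma transcript, so reads there were divided among isoforms by the quantification program. Outside the constant exons, the median share of 50-base stretches also found in another clustered protocadherin was 14.8% for alpha, 4.27% for beta and 0.730% for gamma. The gamma median was the lowest of the 3, but gamma B exons shared more: Pcdhgb1 had 16.8%, Pcdhgb2 17.9%, Pcdhgb4 10.4%, Pcdhgb5 11.6%, Pcdhgb6 11.9%, Pcdhgb7 2.67% and Pcdhgb8 9.49%. The values of alpha and gamma isoforms are not separate measurements, and whether counting used the strand is not stated in the labels or file headers.

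Pcdhgc3 was the most abundant clustered protocadherin by far. It is transcribed widely outside the nervous system as well as in it, and its protein binds Axin1, a scaffold of Wnt signalling. Its mean level over both libraries exceeded that of 90.6% of all genes tested, where genes tested are the 10983 with a mean of at least 0.5 RPKM. It rested on about 2534 reads in the mutant and 373 reads in the control, spread over a transcript of 4686 bases at positions 37966064 to 38001526. As a share of the gamma cluster it made up 44.3% of the RPKM in the mutant and 35.4% in the control. Counted in approximate reads, that share was 44.6% in the mutant (95% Clopper-Pearson interval 43.3 to 45.9) and 35.7% in the control (32.7 to 38.6). These intervals leave out any error in how constant-exon reads were divided among isoforms. The larger share in the mutant stands beside a lower gamma A and B level and a similar level of Pcdhgc3.

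The other C types were low. Pcdhgc4, whose isoform is needed for the survival of some neurons, was at 0.680 RPKM in the mutant (0.563 to 0.815) and 0.397 RPKM in the control (0.196 to 0.716), a ratio of 1.71 (0.917 to 3.56). Pcdhgc5 was at 0.146 RPKM in the mutant and 0.277 RPKM in the control, on about 24 reads in the mutant and 7 in the control. Both ratios had intervals that included 1. Pcdhac2, which serotonergic axons need to spread evenly over their targets, was at 1.22 RPKM in the mutant (1.06 to 1.39) and 0.885 RPKM in the control (0.577 to 1.30), a ratio of 1.38 (0.913 to 2.15). The remaining C type, Pcdhac1, was at 0.0363 RPKM in the mutant on about 7 reads and was listed at about 0 in the control. Together the 5 C types made up 39.9% of the family's RPKM in the mutant and 31.6% in the control.

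Among the gamma A and B isoforms no single gene dominated. Levels in the mutant ran between 0.263 RPKM (Pcdhga1) and 1.87 RPKM (Pcdhga3), with a median of 0.95 RPKM, and levels in the control between 0.215 RPKM (Pcdhgb8) and 2.50 RPKM (Pcdhgb6), with a median of 1.36 RPKM. Of these 19 isoforms, 16 had a lower value in the mutant library (84.2%), against 58.7% of all genes with at least 3 approximate reads in each library. The interval of the ratio lay wholly below 1 for 8 of the 19 (42.1%), against 14.4% of those genes. The exceptions were Pcdhga4, Pcdhga7 and Pcdhgb8. Their ratios were 1.26 (0.628 to 2.85), 1.47 (0.966 to 2.32) and 1.93 (0.806 to 5.88), and each interval included 1. The 2 types gave close values: gamma A summed to a ratio of 0.717 (0.642 to 0.795) and gamma B to a ratio of 0.731 (0.633 to 0.843).

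**Figure D2:**
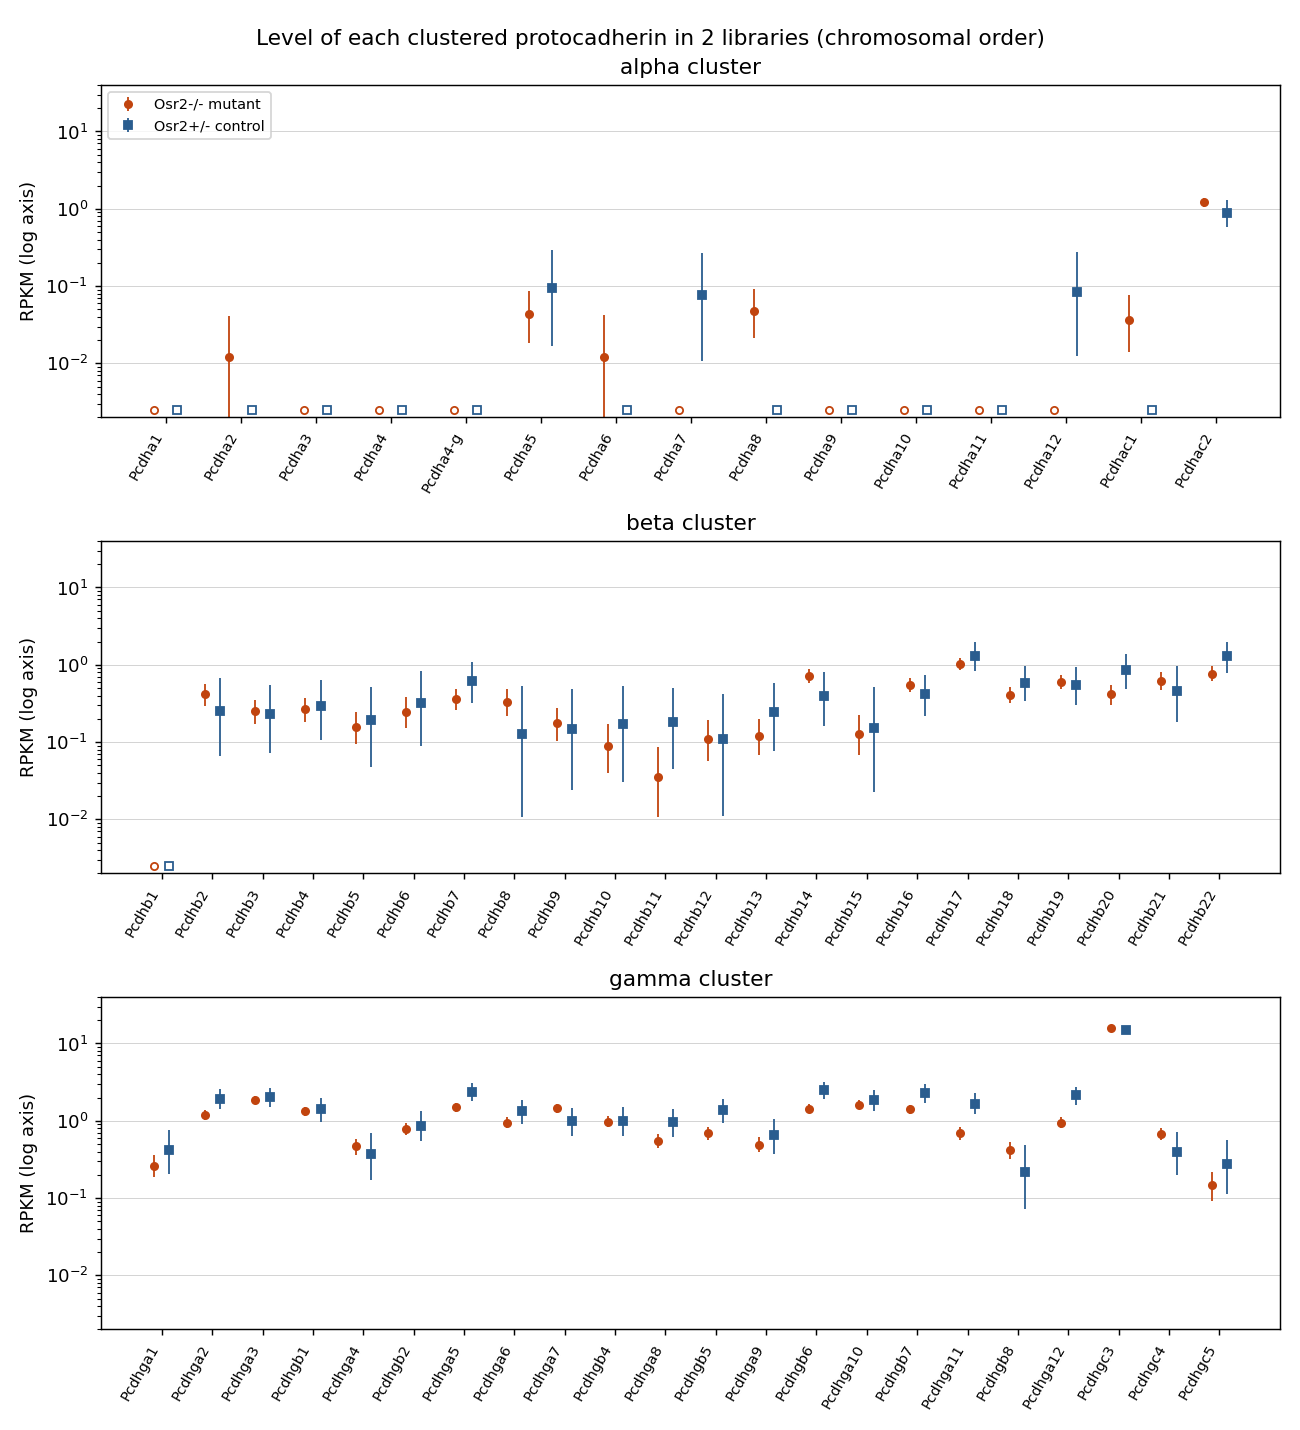
RPKM of each clustered protocadherin in chromosomal order on a log axis, with the mutant library as orange circles, the control library as blue squares and 95% counting intervals as bars; open symbols at the bottom edge stand for values under 0.001 RPKM. Pcdhgc3 stands above all others in both libraries, and most numbered alpha isoforms are at the bottom edge.

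A 2-fold difference was called where the log2 of (mutant + 0.1) over (control + 0.1), in RPKM, was at least 1 in either direction, among genes with a mean of at least 0.5 RPKM. Of the 59 members, 25 passed that filter, namely Pcdhac2, 6 beta isoforms and 18 gamma isoforms, and 34 did not. None of the 25 was 2-fold higher in the mutant library, against 2.08% of all genes tested. The members 2-fold lower were Pcdhga11 and Pcdhga12, that is 8% of 25, against 2.70% of all genes tested. Past 2-fold in either direction were 4.78% of all genes tested. With only 2 genes called, the members' share rests on little. The median log2 ratio was -0.31 over the 25 members and -0.06 over all genes tested. Over the 39 members with at least 3 approximate reads in each library it was -0.28.

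Pcdhga11 and Pcdhga12 are the last gamma A isoforms before the C types, with Pcdhgb8 between them. Pcdhga11 (37915427 to 38001526) was at 0.692 RPKM in the mutant (0.569 to 0.832, about 112 reads) and 1.67 RPKM in the control (1.21 to 2.26, about 42 reads). Pcdhga12 (37925234 to 38001526) was at 0.95 RPKM in the mutant (0.811 to 1.11, about 165 reads) and 2.14 RPKM in the control (1.62 to 2.76, about 58 reads). Neither pair of intervals overlapped. The ratio was 0.413 for Pcdhga11 (0.288 to 0.603) and 0.445 for Pcdhga12 (0.328 to 0.610). Pcdhgb8 was at 0.415 RPKM in the mutant and 0.215 RPKM in the control, on about 5 reads in the control. With a pseudocount of 1 in place of 0.1, the log2 ratios of -1.16 for Pcdhga11 and -1.09 for Pcdhga12 became -0.66 and -0.69, and neither was past 2-fold.

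A softer criterion was a ratio whose 95% counting interval lay wholly below 1. It held for 9 of the 25 members (36.0%), against 14.7% of all genes tested, and an interval wholly above 1 held for none of the 25, against 7.25% of all genes tested, on the deposited scale. The 9 were Pcdhga2, Pcdhga5, Pcdhga8, Pcdhgb5, Pcdhgb6, Pcdhgb7, Pcdhga11 and Pcdhga12 of the gamma cluster and Pcdhb20 of the beta cluster. Pcdhgb6, the highest of the A and B types in the control, was at 1.43 RPKM in the mutant and 2.50 RPKM in the control, a ratio of 0.573 (0.432 to 0.769). Pcdhgb5 was at 0.691 RPKM in the mutant and 1.36 RPKM in the control, a ratio of 0.508 (0.341 to 0.774). Isoforms of similar abundance could also be level. Pcdhga3 had a ratio of 0.927 (0.687 to 1.27), Pcdhgb1 of 0.953 (0.660 to 1.41) and Pcdhga10 of 0.877 (0.636 to 1.23), so equal levels lie within the counting error of each.

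**Figure D3:**
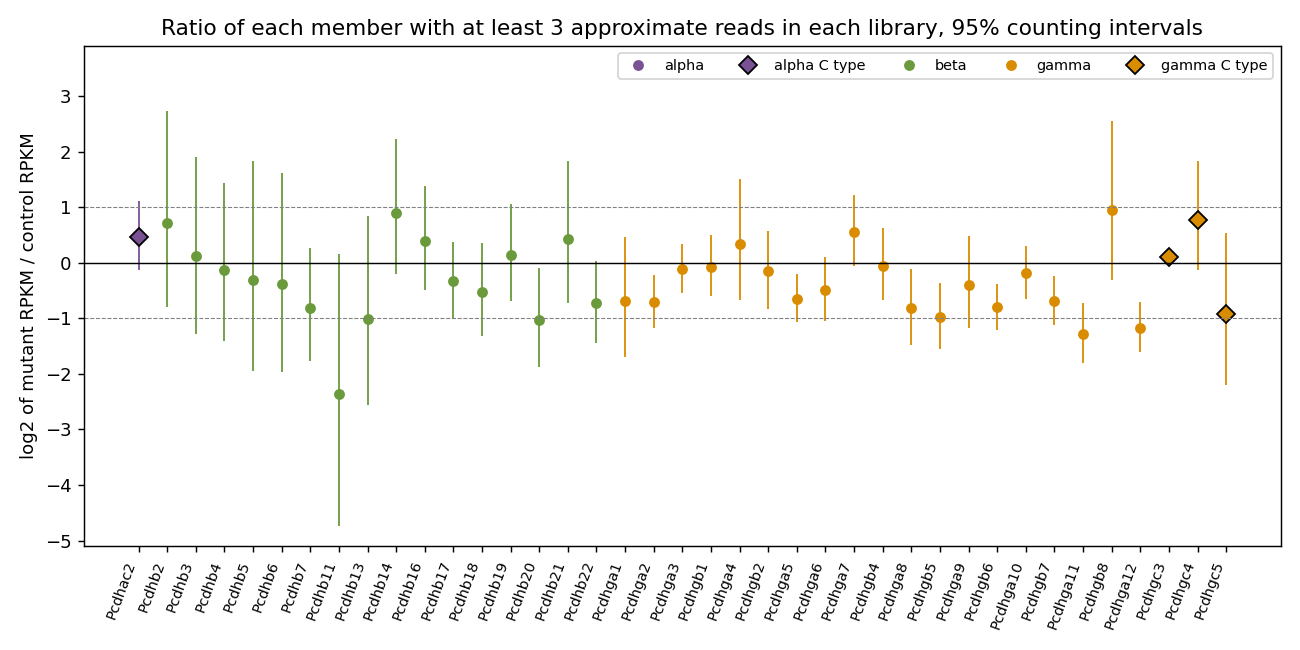
The log2 of the plain ratio, mutant over control, for the members with at least 3 approximate reads in each library, in chromosomal order within alpha, beta and gamma, with 95% counting intervals; diamonds are C types and dashed lines mark 2-fold. Most gamma A and B points lie below 0, Pcdhgc3 lies near 0 with a narrow interval, and the beta intervals are wide.

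Position along the cluster was looked at after the values were seen, so it carries no test. The 10 isoforms upstream, Pcdhga1 to Pcdhgb4, summed to 10.8 RPKM in the mutant and 12.7 RPKM in the control, a ratio of 0.847 (0.752 to 0.961). The 9 isoforms nearer the C types, Pcdhga8 to Pcdhga12, summed to 8.24 RPKM in the mutant and 13.6 RPKM in the control, a ratio of 0.605 (0.534 to 0.680). The counting interval lay below 1 for 6 of these 9 and for 2 of the 10 upstream isoforms, against 14.4% of all genes with at least 3 approximate reads in each library. The isoforms nearer the C types held 43.4% of the summed A and B level in the mutant and 51.7% in the control.

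These directions were checked on other scales, because the deposited values of the 2 libraries do not sum to the same total. Rescaling each library to a common total (a TPM-like scale) moved every plain log2 ratio up by 0.14. With the same pseudocount and filter, the median over all genes became 0.09, and 1290 of 14252 genes were 2-fold higher and 916 were 2-fold lower in the mutant library, against 228 higher and 297 lower of 10983 on the deposited scale. The rescaled values are larger, so more genes passed the filter and the pseudocount weighed less, and these counts do not show the effect of the rescaling alone. The summed gamma A and B ratio was then 0.796 (0.728 to 0.864), with 13 of 19 isoforms below 1, and the ratio of Pcdhga8 to Pcdhga12 was 0.667 (0.589 to 0.749). The ratio of Pcdhga1 to Pcdhgb4 was 0.934 with an interval that included 1 (0.828 to 1.06). Pcdhgc3 stood at 1.17 there, with an interval above 1 (1.05 to 1.31), and the whole gamma cluster at 0.939 (0.878 to 1.0). Of the 39 members with at least 3 approximate reads in each library, 7 then had an interval below 1, against 7.75% of all such genes, and 4 had an interval above 1, against 14.7%. The 4 were Pcdhgc3, Pcdhac2 (1.52, 1.01 to 2.37), Pcdhgc4 (1.89, 1.01 to 3.92) and Pcdhga7 (1.61, 1.06 to 2.55). The calls on Pcdhga8 and Pcdhb20 were lost. With the median log2 ratio of all genes set to 0 instead, the same 9 members as on the deposited scale had an interval below 1 and Pcdhga7 had one above 1. Lower gamma A and B sums in the mutant appeared on all 3 scales. A change of scale moved every plain log2 ratio alike, by 0.14 or 0.06, so the scales are not separate support. The calls on Pcdhga8, on Pcdhb20 and on the 4 members with an interval above 1 on the TPM-like scale depended on the scale.

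The beta cluster, whose isoforms are single-exon membrane proteins, was measured at a low level. Its 22 rows ran between 0 and 1.03 RPKM in the mutant with a median of 0.299 RPKM, and between 0 and 1.30 RPKM in the control with a median of 0.273 RPKM. Pcdhb1, the first gene of the cluster, was the sole member listed at exactly 0 in both libraries, and the other 21 beta isoforms were listed above 0.001 RPKM in both. The highest was Pcdhb17, at 1.03 RPKM in the mutant (0.852 to 1.24) and 1.30 RPKM in the control (0.824 to 1.96). Pcdhb22 followed, at 0.768 RPKM in the mutant (0.610 to 0.955) and 1.28 RPKM in the control (0.791 to 1.95). The ratios were 0.792 for Pcdhb17 (0.503 to 1.30) and 0.602 for Pcdhb22 (0.369 to 1.02), and both intervals included 1.

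Summed, the beta isoforms at the downstream end of the cluster held most of the signal in both libraries, a split also made after the values were seen. Pcdhb14 to Pcdhb22 (9 genes) held 67.3% of the beta signal in the mutant and 67.4% in the control, although Pcdhb15 among them was low (0.129 RPKM in the mutant, 0.152 RPKM in the control). Pcdhb20 (37663918 to 37667314) was the beta isoform with an interval below 1 on the deposited scale, and no beta isoform had one on the TPM-like scale. It was at 0.414 RPKM in the mutant (0.305 to 0.548) and 0.847 RPKM in the control (0.479 to 1.39), a ratio of 0.489 (0.271 to 0.931), on about 15 reads in the control. Pcdhb14 went the other way, at 0.724 RPKM in the mutant and 0.391 RPKM in the control, a ratio of 1.85 with an interval that included 1 (0.871 to 4.67). For Pcdhb16, Pcdhb18, Pcdhb19 and Pcdhb21 the ratios ran between 0.694 (Pcdhb18, 0.399 to 1.28) and 1.34 (Pcdhb21, 0.604 to 3.57), with every interval including 1. Of the upstream isoforms, Pcdhb7 was at 0.357 RPKM in the mutant and 0.626 RPKM in the control, and Pcdhb2 at 0.415 RPKM in the mutant and 0.254 RPKM in the control. Pcdhb11 was at 0.0357 RPKM in the mutant and 0.184 RPKM in the control, on about 4 reads in each library, which leaves an interval of 0.0375 to 1.11 around its ratio of 0.195.

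In the alpha cluster, Pcdhac2 stood nearly alone. It held 88.9% of the alpha RPKM in the mutant and 77.7% in the control. The 12 numbered isoforms together amounted to 0.116 RPKM in the mutant (about 21 reads) and 0.255 RPKM in the control (about 7 reads). Their summed ratio of 0.454 had an interval of 0.188 to 1.26, so no difference was detectable at this depth. The whole alpha cluster had a ratio of 1.20 (0.838 to 1.79). On the log2 scale that is 0.26, and the value without Pcdhac2 was -0.74.

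Most numbered alpha isoforms carried no reads that can be assigned. Values such as 8.05e-10 RPKM (Pcdha1, mutant) stand in the tables in place of 0, and values under 0.001 RPKM are called listed at about 0 here. That threshold was set after the values were seen. By it, 6 alpha members were detected in the mutant and 4 in the control, with 2 detected in both (Pcdha5 and Pcdhac2) and 7 in neither. Pcdha5 was at 0.0432 RPKM in the mutant and 0.0940 RPKM in the control. Pcdha8 was at 0.0481 RPKM in the mutant on about 9 reads, with Pcdha2 (0.0121 RPKM) and Pcdha6 (0.0122 RPKM) on about 2 reads each, and all of them were listed at about 0 in the control. Pcdha7 (0.0777 RPKM) and Pcdha12 (0.0829 RPKM) were on about 2 reads each in the control and listed at about 0 in the mutant. A count of 0 allows up to 3 reads, which for alpha rows is 0.0161 to 0.0306 RPKM in the mutant and 0.103 to 0.195 RPKM in the control. Every value that was listed at about 0 in the control could thus hide a level as high as the one seen in the mutant. The intervals of Pcdha7 (0.0107 to 0.268 RPKM) and Pcdha12 (0.0126 to 0.275 RPKM) in the control reached below the limit for 0 in the mutant. The Pcdha4-g row, which spans both the alpha and gamma clusters, was listed at about 0 in both libraries.

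Across all 59 members, 49 were detected above 0.001 RPKM in the mutant and 47 in the control, with all 22 gamma isoforms detected in both. At 1 RPKM or more there were 11 members in the mutant and 15 in the control. No share over all genes stands beside these counts, so they describe the members only. Of all genes with at least 3 approximate reads in each library, 58.7% had a lower value in the mutant. The order of the isoforms was much the same in both libraries: log2(RPKM + 0.1) had a Pearson r of 0.95 and a Spearman rho of 0.94 over the 59 members, beside 0.93 and 0.94 over the 10983 genes tested. Within the gamma A and B isoforms r was 0.81 and rho 0.77 over 19 genes. These points share a library pair and constant exons, so the coefficients describe the likeness of the profiles and carry no p.

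**Figure D4:**
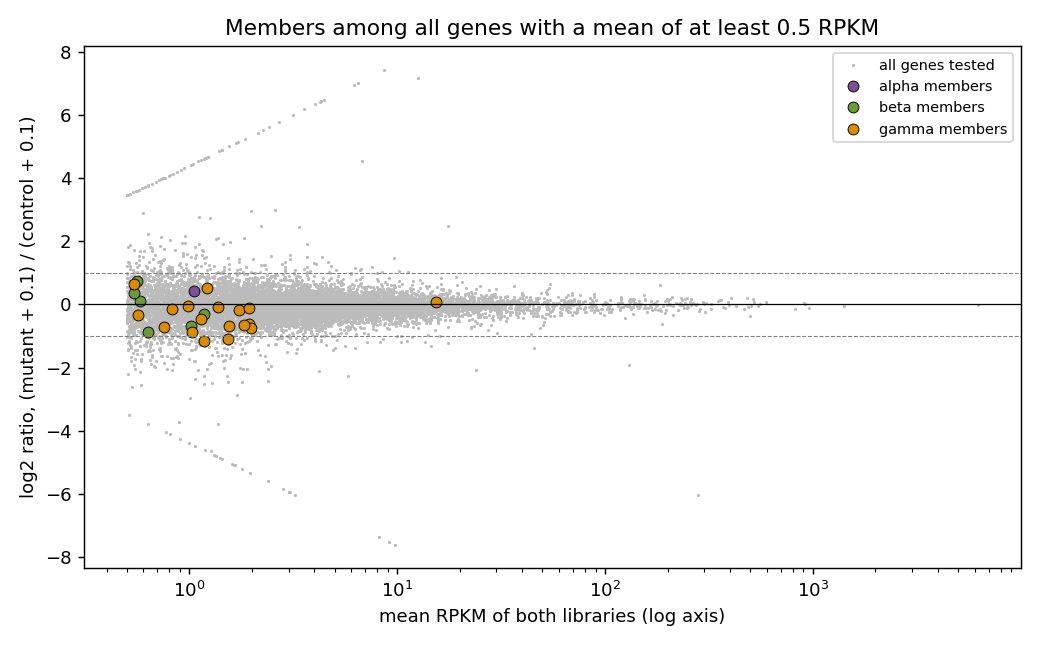
The log2 ratio of (mutant + 0.1) over (control + 0.1) against the mean RPKM of both libraries (log axis) for the 10983 genes tested (grey) and the 25 members that passed the filter (coloured by cluster); dashed lines mark 2-fold. Pcdhgc3 lies alone at the right with a log2 ratio of 0.09, and Pcdhga11 and Pcdhga12 lie below the lower dashed line.

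Genes that act on the clusters were compared as lists. The 18 chromatin and loop factors include the insulator protein Ctcf, the cohesin subunit Rad21, the silencing protein Smchd1 and the DNA methyltransferase Dnmt3b, all of which act on protocadherin promoter choice. None of the 18 was past 2-fold, against 4.78% of all genes tested. Their median log2 ratio was -0.03, beside -0.06 over all genes tested. Ctcf was at 10.7 RPKM in both libraries, with an interval of 0.868 to 1.16 around the ratio, and Rad21 at 37.0 RPKM in the mutant and 37.2 RPKM in the control. Smchd1 was at 9.36 RPKM in the mutant and 9.22 RPKM in the control, and Dnmt3b at 0.754 RPKM in the mutant and 0.849 RPKM in the control. The intervals lay below 1 for 4 of the 18, namely Dnmt3a, Rest and 2 cohesin subunits, against 14.7% of all genes tested. Dnmt3a was nearly level in RPKM, at 15.1 in the mutant and 15.7 in the control, a ratio of 0.964. Its interval of 0.843 to 0.992 is of reads rather than RPKM. Of the cohesin subunits, Smc1a was at 13.0 RPKM in the mutant and 17.1 RPKM in the control, a ratio of 0.759 (0.678 to 0.851). Stag2 was at 7.82 RPKM in the mutant and 10.1 RPKM in the control, a ratio of 0.774 (0.680 to 0.868). Both genes lie on the X chromosome. The cohesin subunits Smc3 (ratio 1.03, 0.934 to 1.13) and Stag1 (ratio 0.967, 0.873 to 1.07), like Rad21, had intervals that included 1. The repressor Rest, which binds neuronal gene promoters, was at 9.30 RPKM in the mutant and 11.1 RPKM in the control, a ratio of 0.841 (0.735 to 0.966). The histone methyltransferase Setdb1 was at 6.31 RPKM in the mutant and 5.49 RPKM in the control, with an interval that included 1.

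Partners of the protocadherin tails and the proteases that cut them were tested for 20 of 23 genes, with a median log2 ratio of -0.07. Of the 20, 1 was past 2-fold, against 4.78% of all genes tested. It was Psen2, a gamma-secretase subunit, at 0.253 RPKM in the mutant and 0.869 RPKM in the control. Its ratio was 0.292 (0.125 to 0.729). Another gamma-secretase subunit, Ncstn, was at 5.85 RPKM in the mutant and 8.69 RPKM in the control, a ratio of 0.674 (0.557 to 0.819). Prkca, a protein kinase C, was at 1.58 RPKM in the mutant and 2.75 RPKM in the control, a ratio of 0.576 (0.471 to 0.708). Axin1, the partner of Pcdhgc3, was at 2.59 RPKM in the mutant and 2.44 RPKM in the control, a ratio of 1.06 (0.775 to 1.45), and was looked up outside the naming rule. Counting intervals lay above 1 for 3 of the 20 genes (Abi2, Pdcd10 and Ctnnb1) and below 1 for 5 (Psen2, Ncstn, Prkca, Fyn and Marcks), against 7.25% of all genes tested above 1 and 14.7% below.

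Genes lying beside or between the clusters were compared as another list. Of 19 listed, 17 were found and 12 tested. None was past 2-fold, against 4.78% of all genes tested, so a count of 0 among 12 tells little. No counting interval excluded 1, against 7.25% of all genes tested above 1 and 14.7% below. The median log2 ratio of the 12 was -0.03. Among the listed genes under the filter, Rell2 was at 0.0774 RPKM in the mutant and 0.493 RPKM in the control. Its ratio was 0.157 (0.0341 to 0.722) on about 5 reads in each library. The 17 genes summed to 79.5 RPKM in the mutant and 82.0 RPKM in the control, a ratio of 0.970 (0.903 to 1.05) on the deposited scale and 1.07 (0.994 to 1.16) on the TPM-like scale. Taf7, a transcription initiation factor gene that lies between the beta and gamma clusters, was at 2.62 RPKM in the mutant and 3.40 RPKM in the control, a ratio of 0.771 (0.583 to 1.03). The sums of the chromatin factors (0.969 deposited, 1.07 TPM-like) and of the partners (0.947 deposited, 1.04 TPM-like) likewise changed side with the scale.

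The unclustered protocadherins, single genes of the same superfamily outside the 3 clusters, were also mostly lower in the mutant library. Pcdh1 and Pcdh12 lie downstream of the gamma cluster on chromosome 18, and Pcdh1 is also counted among the neighbouring genes. Of 13 listed, 12 were found and 10 tested, and 9 of the 10 had a ratio below 1, against 57.1% of all genes tested. The counting interval lay below 1 for 6 of the 10, against 14.7% of all genes tested, and the median log2 ratio was -0.33. Their summed level was 50 RPKM in the mutant and 62.9 RPKM in the control, a ratio of 0.796 (0.740 to 0.814) on the deposited scale and 0.877 (0.815 to 0.897) on the TPM-like scale. In each library that sum was somewhat above the sum of all the clustered protocadherins. Pcdh18 alone was at 26.1 RPKM in the mutant and 30.1 RPKM in the control, more than any clustered isoform. Pcdh7 was at 8.89 RPKM in the mutant and 13.6 RPKM in the control, a ratio of 0.653 (0.591 to 0.722). Past 2-fold was 1 of the 10, Pcdh9, against 4.78% of all genes tested. Pcdh9 was at 1.18 RPKM in the mutant and 2.72 RPKM in the control, a ratio of 0.435 (0.336 to 0.568). Lower values of protocadherin genes in the mutant library were therefore not limited to the gamma cluster.

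**Figure D5:**
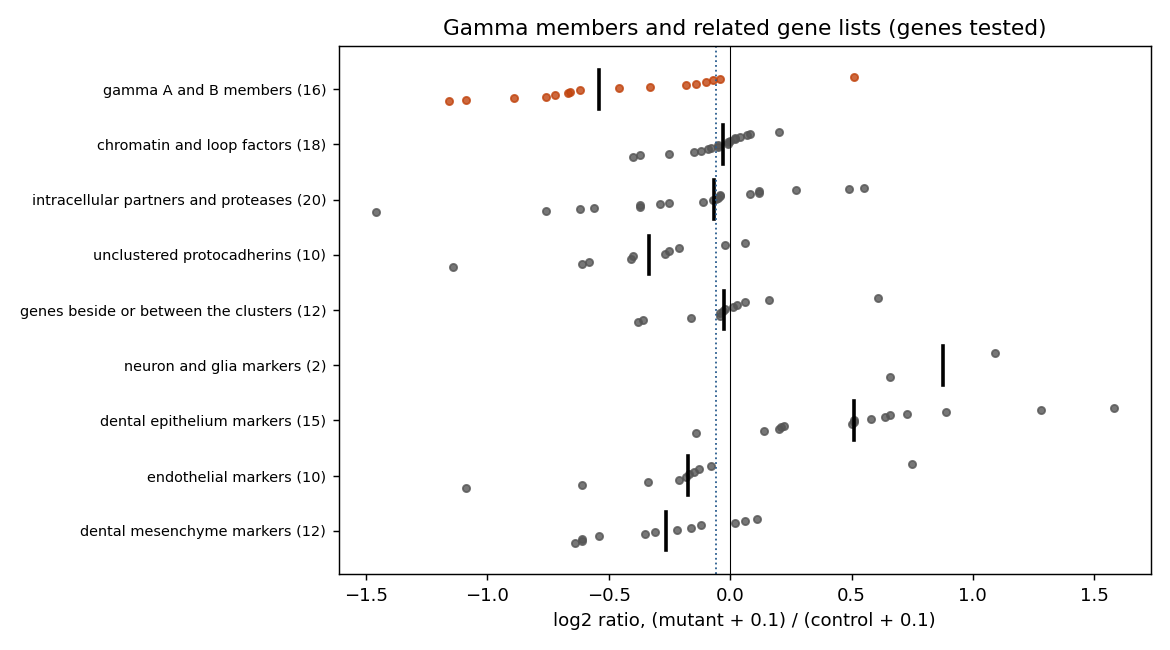
The log2 ratio of (mutant + 0.1) over (control + 0.1) on the deposited scale for each tested gene of the gamma A and B isoforms (orange) and of the related lists (grey), with the number tested in brackets; thick bars are medians and the dotted line is the median of all genes tested (-0.06). The medians were -0.54 for gamma A and B isoforms that passed the filter, -0.33 for unclustered protocadherins and -0.03 for both the chromatin factors and the neighbouring genes, whose sums change side on the TPM-like scale.

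Markers of other cell types also differed between the libraries. The 20 neuron and glia markers summed to 8.93 RPKM in the mutant and 4.91 RPKM in the control, a ratio of 1.82 (1.39 to 2.31). Most of that was neurofilament, with Nefl at 4.43 RPKM in the mutant and 2.03 RPKM in the control and Nefm at 1.98 RPKM in the mutant and 1.21 RPKM in the control. Defining markers were at or near 0: 4 of 20 were under 0.001 RPKM in the mutant and 11 of 20 in the control, and Nefh, Pou4f1 and Prph were among those at 0 in both. Single neuronal markers did not all go the same way. Snap25 was at 0.103 RPKM in the mutant and 0.545 RPKM in the control, a ratio of 0.189 (0.0564 to 0.658), and Rbfox3 at 0.200 RPKM in the mutant and 0.340 RPKM in the control, both on few reads. How the summed level of this list relates to the protocadherin values was not tested.

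Dental epithelium markers (17 of 18 found) summed to 69.7 RPKM in the mutant and 50.3 RPKM in the control, a ratio of 1.39 (1.29 to 1.51). Of 15 tested, 1 had a ratio below 1, against 57.1% of all genes tested, and Krt17 and Krt18 (epithelial keratins) were 2-fold higher in the mutant, against 2.08% of all genes tested. Endothelial markers (10 of 10 tested) summed to 26.3 RPKM in the mutant and 32.1 RPKM in the control, a ratio of 0.819. The interval of 0.787 to 0.935 is of summed reads and is not centred on that ratio. Of the 10, Emcn was past 2-fold lower in the mutant, against 2.70% of all genes tested. On the TPM-like scale the endothelial sum had a ratio of 0.902 (0.867 to 1.03) and no endothelial marker was past 2-fold. The dental mesenchyme markers (12 of 12 tested) summed to 629 RPKM in the mutant and 795 RPKM in the control, a ratio of 0.791 (0.784 to 0.814). Of the 12, 9 had a ratio below 1 and 8 had an interval below 1, against 57.1% and 14.7% of all genes tested. Among them the transcription factor genes Pax9 (39.4 RPKM in the mutant, 61.7 RPKM in the control) and Barx1 (27.2 RPKM in the mutant, 39.6 RPKM in the control) were lower in the mutant. The part of these marker differences in the protocadherin values was not tested.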

How the data were processed

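RNA-seq of 1 mutant and 1 control library of laser-captured lower molar mesenchyme was used. The submitters' processing notes name TopHat 1.4.1, Bowtie 0.12.7 and the build mm9. The deposited file names give Cufflinks as the source of the values; no version of it is named in the labels or headers. Per the file headers, each deposited table gives RPKM and coverage (a signal not scaled for library size) for 28107 transcript rows. In this re-analysis, 54 rows whose status was failed or high data were left out and rows summed per symbol, leaving 22054 genes; all 59 members had status OK and 1 row each. Approximate reads were coverage times length divided by 44.3 bases, the mean of the medians in the mutant (43.9) and control (44.6) of products between 20 and 66 bases. Whole reads could not be recovered, so no count model was fitted. For a gene with several rows and for a sum over genes, the fold is of RPKM and its interval of reads. Long transcripts weigh more in summed reads, so the 2 can differ and the interval need not be centred on the ratio. Intervals are exact Poisson for levels and Clopper-Pearson for ratios and shares (95%). The ratio intervals were tried on simulated Poisson reads of separate genes, which checks the calculation only. Amplified reads and reads divided among isoforms were not simulated. Plain ratios of single members were calculated only with at least 3 approximate reads in each library. No p-values were computed.

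Positions are counted from 1. Shared exons were taken from GENCODE M21, with the transcript nearest the row's length (Pcdha4-g was left out). The transcript matched to Pcdhgb8 holds 375 constant bases, against a median of 2119. No sequence is printed. Named genes were Osr2, the C types, the 10 highest members of each cluster, up to 5 members per direction with the most extreme ratio, up to 3 members at about 0 in 1 library, Ctcf, Rad21, Smchd1, Dnmt3b, up to 4 genes per list with the largest absolute ratio and, for marker lists, genes at 0; other names, such as Pcdhga4, Pcdhgb8, Pcdhb11, Pcdhb15, Rell2, Snap25, Abi2, Axin1, Taf7 and Pcdh18, were chosen after their values were seen. The members, lists and rules were chosen with earlier results of these data known. Alternatives were pseudocounts of 1 and 0.01, filters at 0.25 and 1 RPKM or none, other scales, row choice and status, and rows of 2000 to 6000 bases. Work was done in Python 3.11.15 with pandas 2.3.3, numpy 2.4.6, scipy 1.17.1 and matplotlib 3.10.9.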

Additional observations from a re-analysis of the deposited data

How the results depend on the processing

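With 1 library per genotype, nothing here measures variation between embryos, and no library could be left out. No paired analysis was possible because each genotype has 1 pooled library. The shallow control limits single isoforms: the numbered alpha isoforms had too few reads to be compared one by one. Of the 59 members, 2 were past 2-fold, both lower in the mutant (Pcdhga11 and Pcdhga12). With a pseudocount of 1 there were 0 in all and 0 lower, and with a pseudocount of 0.01 there were 3, with Pcdhb20 added. Without a filter there were 3, with Pcdhb11 added. On the TPM-like scale, which also raises values past the filter, there were 6: Pcdhb8, Pcdhb14 and Pcdhgb8 higher (3) and Pcdhb11, Pcdhga11 and Pcdhga12 lower. Under the other 6 settings (filters at 0.25 and 1 RPKM, a median log2 ratio of 0, the highest row per gene, all rows, and rows of 2000 to 6000 bases) the members called were Pcdhga11 and Pcdhga12. The settings on row choice, status and row length could not change any member. Each member had 1 row, status OK and a length of 2319 to 5422 bases. Neither filter could drop Pcdhga11 (mean 1.18 RPKM) or Pcdhga12 (mean 1.54 RPKM). Over the regulator, partner, neighbour, unclustered and marker lists, 6 genes were past 2-fold, against 1 with a pseudocount of 1 and 14 on the TPM-like scale. These counts moved with the shares over all genes. Those shares were 2.08% higher and 2.70% lower on the main setting, and 0.792% and 0.710% with a pseudocount of 1. On the TPM-like scale they were 9.05% and 6.43%. The counts over all genes were 87 higher and 78 lower with a pseudocount of 1, 907 and 767 without a filter, and 310 and 597 with the highest row per gene.

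The alpha sum had a log2 ratio of 0.26, which became -0.74 without Pcdhac2 and -1.14 without the C types. The gamma sum had a log2 ratio of -0.23, which became -0.09 on the TPM-like scale, -0.44 without Pcdhgc3 and -0.47 without the C types. Members listed above 0 numbered 58 in each library, and 24 in each at 0.5 RPKM or more. The threshold of 0.001 RPKM was added after the data were seen and gave 49 members in the mutant and 47 in the control.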
